A study of Homo sapiens with 12 samples.

Results

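Of 842183 deposited transcript positions, 2820 were read by AlkAniline-Seq in control cells and had no read in any library after METTL1 knockdown. They were chosen by their reads: at least 1 read in each of shscramble replicates 2 and 3, a sum of 20 or more over both, and 0 reads in all 3 shMETTL1 replicates. In total 15162 positions had enough reads in shscramble replicates 2 and 3 to be considered, so the chosen positions were 18.6% of them. They lay in 2256 of 18569 Ensembl gene IDs. Because reads chose the positions, their loss in shMETTL1 is a description and carries no test.

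METTL1, together with its partner WDR4, forms the methyltransferase that places N7-methylguanosine (m7G) inside tRNAs, and it also acts on some microRNAs and on internal sites of mRNA. AlkAniline-Seq turns m7G into a break: alkaline treatment opens the methylated base, aniline cleaves the chain beside it, and the new end takes an adapter. A modified base is therefore read as a pile of reads at 1 position, and the share of the covering reads that lie in the pile is the field's measure of the modification.

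The cells were LNCaP-AI, a castration-resistant prostate cancer line derived from LNCaP, and every group was kept under androgen deprivation. They carried either a short hairpin RNA against METTL1 (shMETTL1) or a scrambled hairpin (shscramble), with 3 replicates each. Every replicate had an AlkAniline-Seq library and an untreated input library of the same RNA, 12 libraries in all. The knockdown used 1 hairpin sequence in 1 cell line, and the labels do not say whether replicates were separate cultures. The study's methods describe its data in general as biological replicates, and p-values here measure only the spread between these samples. The hairpin is shown because it is the only difference between the groups that the sources describe. The study lists it as a pair of stretches under 1 name and without strand names. They are called sense and antisense here by their order. Both are given 5′ to 3′, with the 21 bases that pair with each other in capitals. The lower-case bases lie where the stretches meet if read on in order. The study does not say whether these bases form the loop of 1 hairpin or the ends of separate strands. The stretches target METTL1, and their place in the genome was not looked up, as no genome was used here.
Sense strand: GGAATGTAGTCCATCTAAACTcg
Antisense strand: aaAGTTTAGATGGACTACATTCC

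The positions carry no coordinate, so neither the base at each position nor its place in a transcript is known here. The AlkAniline-Seq counts summed to between 1421551 and 2764417 per library, and the input counts to between 2783709 and 3258499. The chosen positions held 3.47% of the reads of shscramble replicate 2 and 5.16% of those of replicate 3. METTL1 and WDR4 could not be named in the files, so the knockdown was not checked. Of the markers of prostate luminal cells, KLK2 alone could be looked up, and it was read in all 6 AlkAniline-Seq libraries and all 6 inputs.

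Shscramble replicate 1 stood apart from the other libraries and had no part in the choice. Where replicate 2 had at least 50 reads and the libraries other than replicate 1 summed to no more than 2, replicate 1 had a read at 99.9%, with a median of 0.102 reads per read of replicate 2 (quartiles 0.0787 and 0.129). For positions equally deep in replicate 3 this was 100% and 0.145 (quartiles 0.113 and 0.179). In the 28 other ordered pairs of libraries the median was 0, and 5% to 32% of the positions had a read. At the chosen positions, replicate 1 had reads at 2801 of 2820, with a median of 7 reads against 21 in replicate 2 and 18 in replicate 3. It held 24197 reads there, where the median ratios to replicates 2 and 3 come to 19941. Its reads at these positions are printed below beside those of replicates 2 and 3, but therefore do not count as a separate observation.

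Most chosen positions were carried by a single control library. In 1828 of the 2820 positions (64.8%) the weaker of shscramble replicates 2 and 3 had exactly 1 read, while the stronger had a median of 52. Among the 12342 positions that passed the same read thresholds and were also read in shMETTL1, 24.2% had 1 read in the weaker library. At 955 of the 1828 positions the single read was also the whole coverage of that library. Replicate 2 was the stronger library at 1492 positions, replicate 3 at 1320, and both were equal at 8. Both libraries had at least 5 reads at 577 positions, at least 10 at 340, at least 20 at 174 and at least 50 at 36.

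**Figure D1:**
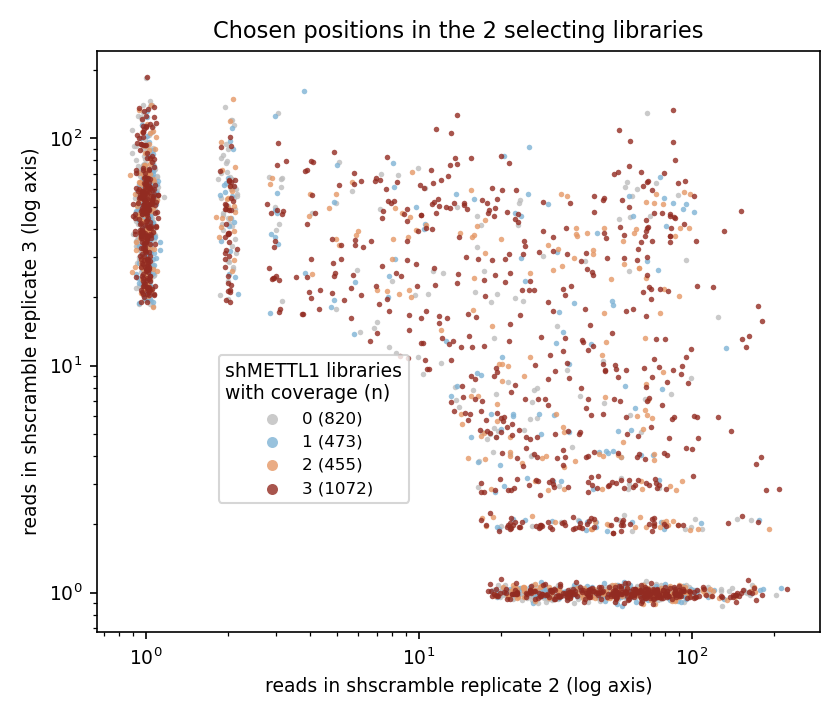
Reads at each of the 2820 chosen positions in shscramble replicate 2 (horizontal, log axis) and replicate 3 (vertical, log axis), slightly jittered, coloured by how many of the 3 shMETTL1 libraries covered the position. The 1828 positions with 1 read in the weaker library form the bands along both axes, and the empty corner lies under the threshold of 20 summed reads.

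The reads of the chosen positions were moderate, with a median sum of 53 over replicates 2 and 3 and a highest sum of 221. Positions also read in shMETTL1 had a median of 72 and reached 36297. No position with 500 or more reads in replicates 2 and 3 (377 positions) was absent in shMETTL1, and 6 of the 1222 in the class below, from 200 reads on, were. At the threshold, 56 chosen positions had a sum of exactly 20 reads, and 53 positions that met the other conditions had a sum of 19. Replicate 1 had a median of 2 reads at the former and 3 at the latter. A further 1316 positions were left out for a single read over the 3 shMETTL1 libraries.

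The position with the highest smaller count lay in ENSG00000014641, an ID for which the files give no symbol. It had 40, 84 and 91 reads in shscramble replicates 1, 2 and 3 and 0 in each shMETTL1 library. There the coverage was 323, 532 and 11, so 0 of 866 covering reads allow a share of up to 0.346% (3 reads of the total), against 35.2% in shscramble replicates 2 and 3. Such limits cover counting error only, since reads without molecular identifiers are not independent molecules. Over the 10 positions with the highest smaller count, replicate 2 had 66 to 89 reads and replicate 3 had 64 to 128. Of these 10, 7 were covered in all 3 shMETTL1 libraries and 2 in none.

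The 10 positions with the most summed reads looked different. In 6 of them the weaker library had 1 to 3 reads, and 2 of the other 4 had the same values in every library under different gene IDs. The highest had 28, 220 and 1 reads in shscramble, and the fifth had 23, 1 and 204. In all, 270 of the 2820 entries are 130 sets of rows with the same values in every library under different gene IDs, which leaves 2680 distinct positions.

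Absence of a pile can mean that the transcript was covered without a break or that nothing was sequenced there. Of the chosen positions, 1072 (38.0%) were covered in all 3 shMETTL1 libraries, 455 in 2, 473 in 1 and 820 (29.1%) in none. Of the positions read in shMETTL1, 87.7% were covered in all 3. Where both control libraries had at least 10 reads, 206 of 340 (60.6%) were covered in all 3 shMETTL1 libraries and 40 (11.8%) in none. Where the weaker one had 1 read, it was 540 (29.5%) and 660 (36.1%). The chosen positions best read in both controls were thus more often those at which shMETTL1 had covering reads. The difference was not tested, and positions read in a shMETTL1 library are by that fact covered in it.

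**Figure D2:**
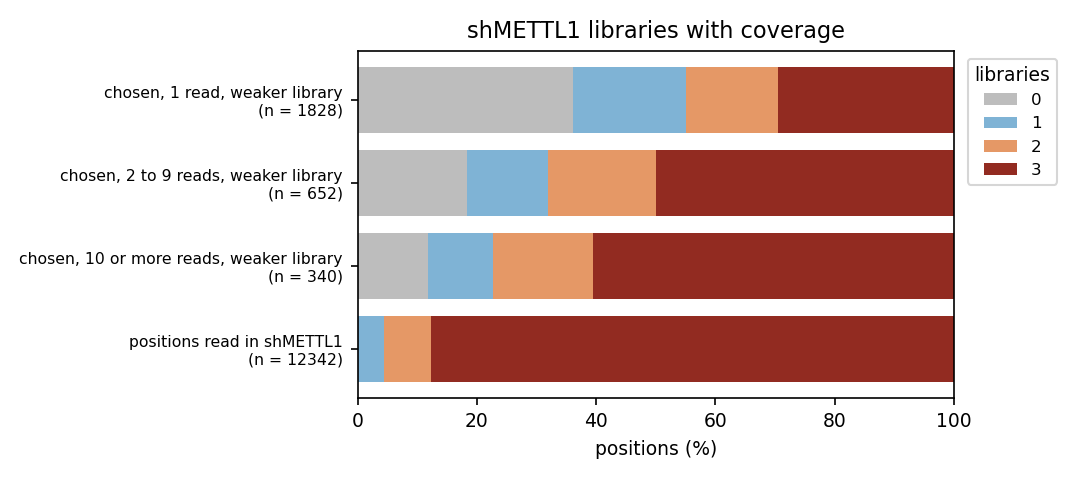
Share of positions (horizontal, percent) by the number of shMETTL1 AlkAniline-Seq libraries with coverage there, for chosen positions grouped by the reads in the weaker of shscramble replicates 2 and 3, and for positions also read in shMETTL1. Coverage in all 3 libraries runs from 29.5% with 1 read to 60.6% with 10 or more, against 87.7% for positions read in shMETTL1.

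At the 1072 positions covered throughout, the median summed shMETTL1 coverage was 278 reads, which allows a share of up to 1.08%, and the median share in shscramble replicates 2 and 3 was 28.7%. The limit was below the shscramble share at 1059 of them, and below 0.1 of that share at 874. All 206 positions that also had 10 reads in both controls were among the 1059, with a median coverage of 367 and a median shscramble share of 25.5%. The shares and the absence were both selected on, so these limits are a description. The deepest coverage, 260406 reads in shMETTL1, was at a position with 16, 1 and 106 reads in shscramble, where the pile was 0.080% of the coverage of replicates 2 and 3. Deep coverage thus also occurred beside small shares.

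Where shMETTL1 had no coverage, the reads in the controls stood almost alone too. The piled reads made up a median of 100% of the coverage at the 820 uncovered positions, and at 75.9% of them every covering read in replicates 2 and 3 was a piled read. At the 1072 positions covered in all 3 libraries this held for 2.43%. Over all chosen positions the median share was 81.0%, and every covering read was piled at 930 (33.0%). Over positions read in shMETTL1 the median was 25.3%, and 9.07% had piled reads alone. The input covered 544 of the 820 positions (66.3%) in at least 1 shMETTL1 replicate, and 276 had coverage in neither kind of shMETTL1 library.

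The authors' fold over input has a fixed value at many of these positions. A position without a read has a deposited fold of 0. Where a position has reads and its input has none, the fold equals the share plus 1. No value in the files departed from this. In that case a position with all its reads in the pile gets a fold of 2. A fold of 2 in all 3 shscramble libraries and 0 in all 3 shMETTL1 libraries was found at 752 positions of the series, of which 478 were chosen positions. In replicate 2 a fold of 2 was seen at 1028 chosen positions and in replicate 3 at 1034.

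The same rule was also turned round. Of 14669 positions with the same read thresholds in shMETTL1 replicates 1 and 2, 2711 (18.5%) had no read in any shscramble library. For shMETTL1 replicates 1 and 3 it was 2975 of 15801 (18.8%), and for replicates 2 and 3 it was 2243 of 13189 (17%). The 18.6% absent after knockdown lies inside this range. The thresholds are raw reads, and the libraries differed in depth. Shscramble replicates 2 and 3 had 2624431 and 1421551 reads, and the shMETTL1 libraries 2474464 to 2764417. The shares were not adjusted for this, so their nearness does not show that both directions behave alike. With shscramble replicate 1 as a selecting library the shares were higher, at 15290 of 36922 (41.4%) with replicate 2 and 9422 of 25491 (37.0%) with replicate 3. With at least 10 reads in both libraries of the pair, 5.69% of the control positions were absent in shMETTL1, and 5.26% to 6.58% of the shMETTL1 positions were absent in shscramble. When shscramble replicate 1 was left aside and absence was asked of 2 libraries, 24.2% to 26.8% of the control positions were absent in pairs of shMETTL1 libraries. In the other direction 24.7% to 27.1% were absent in shscramble replicates 2 and 3.

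The positions found only in shMETTL1 were near the chosen ones in some measures and apart in others. Between 61.9% and 68.3% of them had 1 read in the weaker library, against 64.8% of the chosen positions, and 28.4% to 32.1% had no coverage in the other group, against 29.1%. Coverage in all 3 libraries of the other group was found at 38.6% to 42.9%, against 38.0%. Their reads in the pair were more, with medians of 66 to 95 against 53. Among positions with a sum of at least 100 and under 200 reads, 13.6% to 20.1% of those read in shMETTL1 were absent in shscramble, against 8.82% in the direction of the chosen positions. Both comparisons use raw reads. Shscramble replicate 3 had 1421551 reads in total and each shMETTL1 library at least 2474464, so depth differs between the directions. The share absent fell with the reads of the weaker library in both directions. For the controls it went from 38.0% at 1 read to 8.70% at 10 to 19 reads and 1.84% at 50 or more. For the shMETTL1 pairs it went from 34.7% to 37.6% down to 3.27% to 3.86%. These shares share their libraries with each other, and the differences between them were not tested.

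**Figure D3:**
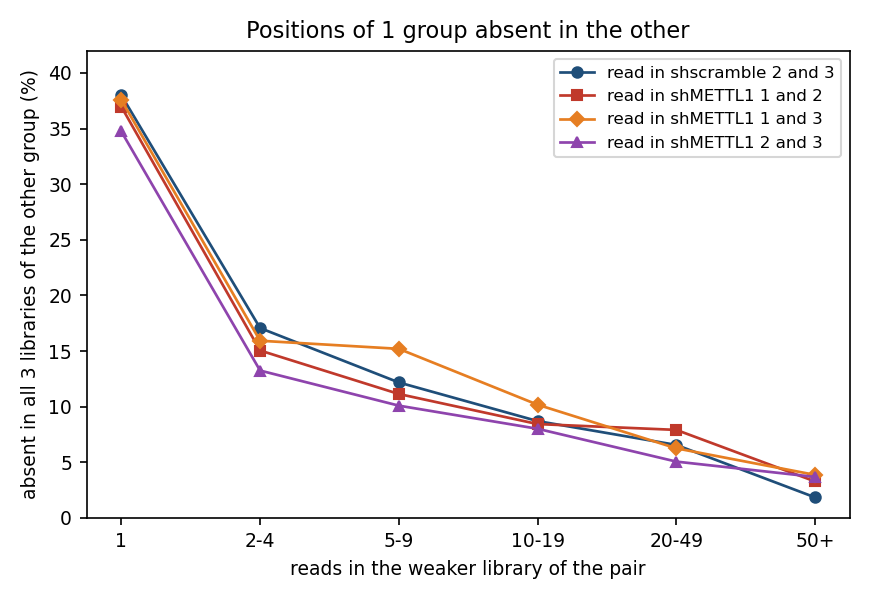
Share of positions read in 1 pair of libraries that had no read in any of the 3 libraries of the other group (vertical, percent) by the reads in the weaker library of the pair (horizontal). The blue line is the controls (38.0% at 1 read, 1.84% at 50 or more), and the 3 other lines are the pairs of shMETTL1 libraries (34.7% to 37.6%, and 3.27% to 3.86%).

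The genes of the chosen positions were rarely silent after knockdown. Of the 2256 gene IDs, 2248 (99.6%) had shMETTL1 reads at other positions, and 2157 (95.6%) had them in all 3 libraries. In 1269 IDs another position past the same thresholds was still read in shMETTL1. Most IDs, 1822, held 1 chosen position, 336 held 2, 74 held 3 and 24 held 4 or more. The largest number was 7 of 38 eligible positions, in ENSG00000145191, which has no symbol in the files. Genes with few eligible positions lost a larger part of them: 32.6% where a gene had 1, 29.9% where it had 2, and 6.24% where it had 10 or more.

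Summed over these other positions, the AlkAniline-Seq reads of the genes had a median change near that of all IDs. Of the 2256 IDs, 2158 had enough reads for edgeR's quasi-likelihood test. None passed an adjusted p of 0.05, against 2 of all 11041 IDs tested (0.0181%), both lower. Before adjustment, 58 (2.69%) fell under a p of 0.05 on the lower side and 100 (4.63%) on the higher, where the background was 3.11% lower and 3.84% higher. The median log2 change of the 2158 was 0.12 and that of all IDs 0.08. DESeq2 called 14 lower (0.655% of the 2136 it tested) and 13 higher (0.609%), against 0.789% and 0.695% of all IDs. The same libraries chose the positions, and leaving out reads that are present only in controls lowers the control totals alone, so the values are a description. Shscramble replicate 1 counted as a full replicate, and without it 0 of these IDs passed as well. In simulated counts with the spread of these libraries, an 8-fold change (3 on the log2 scale) was recovered for 35% of 100 changed genes.

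The input libraries were not used to choose positions and measure RNA without cleavage. They share their RNA with the libraries that chose the positions, so the choice can favour genes lower in that RNA after knockdown. The background below is all IDs tested, not only those with an eligible position. Summed per gene, 2202 of the 2256 IDs could be tested, and 0 passed the adjusted threshold in either direction, as did 0 of all 11740 (0%) in edgeR. Before adjustment, 136 (6.18%) had a p under 0.05 and a lower value in shMETTL1 and 26 (1.18%) a higher one, where the background was 4.62% lower and 1.64% higher. The median log2 change was -0.18 over these IDs and -0.04 over all. With library size alone as scaling both medians were above 0, at 0.14 and 0.22, and before adjustment 51 IDs were lower (2.32%) and 67 higher (3.04%), against 1.54% and 2.5% of all IDs, so sign and split depend on the scaling. Relative to the median of all IDs, that of the members' genes lay between -0.25 and -0.06 under all settings tried. DESeq2 called 5 of these IDs lower (0.231%) and 0 higher, against 0.169% and 0.107% of all IDs. In simulated input counts with the spread of these libraries, an 8-fold change (3 on the log2 scale) was recovered for 33% of 100 changed genes, so moderate changes could not have been seen.

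At the chosen positions themselves, the input did not show the loss. Input reads were found at 890, 509 and 813 of the 2820 positions in shscramble replicates 1, 2 and 3, and at 1245, 837 and 910 in shMETTL1 replicates 1, 2 and 3. Scaled to the input total of each library (CPM, the usual depth-scaled count) they came to 3828, 1702 and 3579 in shscramble and 3698, 3396 and 3667 in shMETTL1, so the groups overlapped and shscramble replicate 2 was the lowest. In shscramble replicate 2 the input had a read at 8.56% of all deposited positions, and in shMETTL1 replicate 1 at 37.0%. The 4 other inputs lay between 18.3% and 19.6%, and the 2 extremes at the chosen positions are the same libraries. In at least 1 shMETTL1 input 1806 of the chosen positions (64.0%) had a read, and in at least 1 shscramble input 1496. A read in any input was missing at 642.

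**Figure D4:**
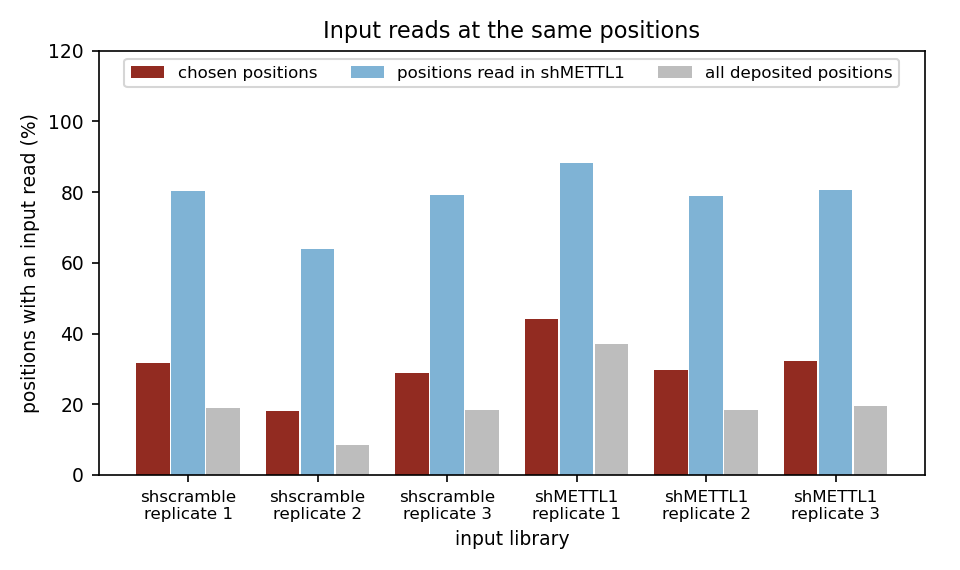
Share of positions with at least 1 input read (vertical, percent) in each of the 6 input libraries, for the chosen positions (red), positions past the same thresholds that were read in shMETTL1 (blue) and all deposited positions (grey). The chosen positions lie between 18.1% and 31.6% in shscramble and between 29.7% and 44.1% in shMETTL1.

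Tested position by position, 149 of the 2820 had enough input reads for edgeR. None passed the adjusted threshold, as with 0 of all 20840 positions tested (0%). Before adjustment, a p under 0.05 was reached by 0 of the 149 with a lower value in shMETTL1 and by 5 (3.36%) with a higher one, against 2.93% lower and 2.68% higher over all positions. DESeq2 called 0 of the 137 it tested, against 0.123% lower and 0.0842% higher of all positions. The median log2 change was 0.14 over the 149 and 0.13 over all. No simulated position changed 8-fold was recovered, so this test could not have shown a change of that size.

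Gene symbols could be given to 115 gene IDs, through a list of genes that the study chose on these same libraries, and 67 of the 115 held a chosen position, 92 positions in all. At 46 of them the position is the one that gave the name. The study's choice favours positions that differ between the groups, and it lists the genes as differing in mRNA as well as m7G. These genes are therefore examples and no evidence of a direction, in AlkAniline-Seq or in the input. Of the 92 positions, 53 had 1 read in the weaker control, 16 had at least 10 in both, 43 were covered in all 3 shMETTL1 libraries and 14 in none. Of the 67 genes, 38 also held positions read only in shMETTL1 under the reversed rule, among them GARS with 10, SLC7A5 and SLC3A2 with 9 each and HMGCS1 with 7. The same held for 1234 of all 2256 IDs with a chosen position (54.7%). Among all 5131 IDs with an eligible position it held for 2529 (49.3%). A gene's other reads, given below, leave out its chosen positions and keep those read only in shMETTL1, which shifts them upward after knockdown. The positions with at least 10 reads in both, described first, were picked after their values were seen.

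The best read of the named positions was in TM2D1, a gene for a membrane protein, with 14, 71 and 65 reads in shscramble replicates 1, 2 and 3. Its coverage in shMETTL1 was 144, 114 and 33, and 0 of 291 reads allow a share of up to 1.03%, against 39.9% in shscramble replicates 2 and 3. PRKAR1A, the regulatory subunit of protein kinase A, had 12, 53 and 55 reads at 1 of its 3 positions, with a shMETTL1 coverage of 26, 433 and 115. Both control libraries were high at these positions and differed by less than 10 raw reads, although replicate 2 had 2624431 reads in total and replicate 3 had 1421551. The other chosen positions of these genes were less even. Replicates 2 and 3 had 6 and 42 reads at that of TM2D1. At those of PRKAR1A they had 101 and 1, and 39 and 1.

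CCDC25 had 9, 53 and 44 reads, with a coverage of 169, 271 and 55 in shMETTL1 that allows 0.606% against 42.7% in shscramble replicates 2 and 3. PNN, which encodes pinin, a protein of desmosomes and of the splicing machinery, had 7, 69 and 35 reads and a shMETTL1 coverage of 407, 696 and 265, which allows 0.219% against 22.5%. MLST8, a subunit of the mTOR complexes, had 6, 29 and 31 reads and a coverage of 280, 271 and 128, which allows 0.442% against 18.5%. These were positions at which all 3 knockdown libraries were deeply covered and none had a piled read.

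Other positions of this kind were thinner on 1 side. SLITRK6 had 12, 38 and 42 reads at its first position, and shMETTL1 covered it with 84, 379 and 0 reads. TGFBR3, the co-receptor betaglycan, had 10, 22 and 21 reads and no coverage in any shMETTL1 library. CRTAP, which takes part in collagen prolyl hydroxylation, had 8, 43 and 37 reads and was covered in shMETTL1 replicate 3 only. SESN3, a stress-responsive sestrin, had 9, 69 and 22 reads and a coverage of 22, 75 and 2. For TGFBR3 the absence of reads cannot be told apart from an absence of coverage, and for CRTAP this holds in 2 of the 3 shMETTL1 libraries.

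**Figure D5:**
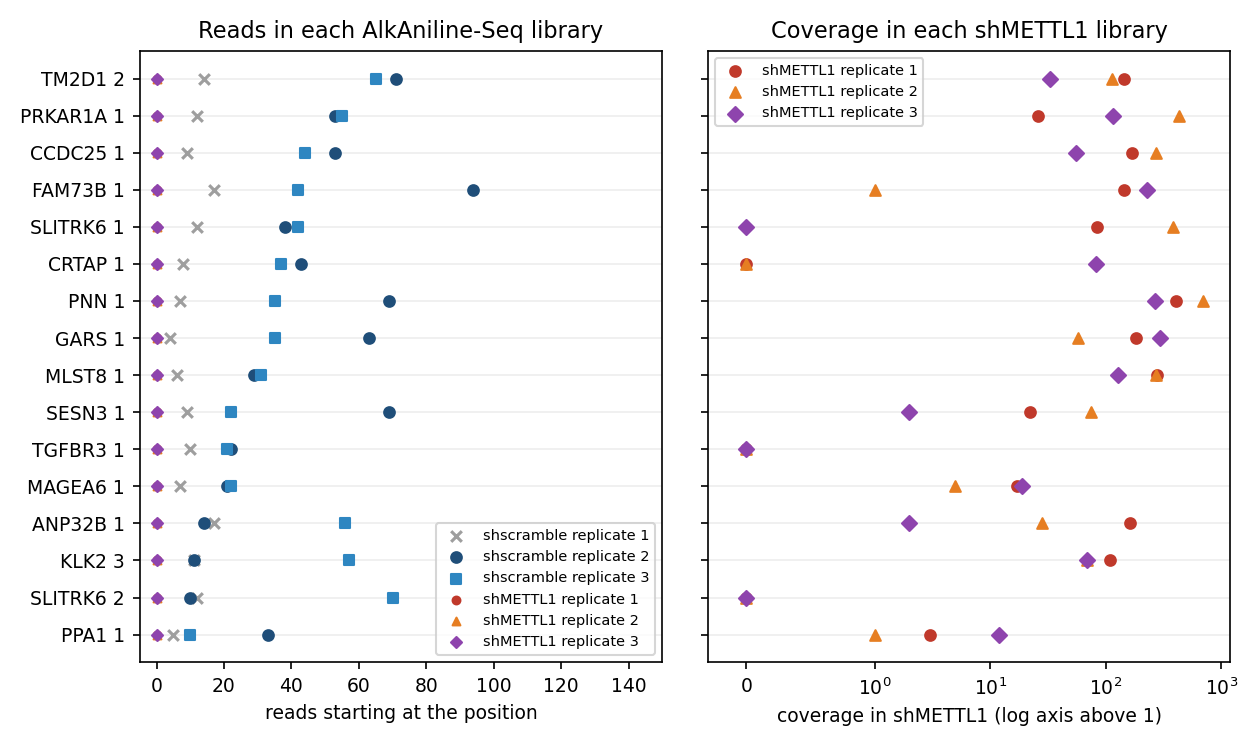
The 16 positions in named genes with at least 10 reads in both shscramble replicates 2 and 3 (the number after a symbol counts the gene's chosen positions). Left, reads at the position in each of the 6 AlkAniline-Seq libraries, with the 3 shMETTL1 libraries together at 0; right, coverage in each shMETTL1 library (linear below 1, log above), where SLITRK6 position 2 and TGFBR3 have 0 in all 3.

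Both androgen receptor targets that could be named, of 21 listed, held chosen positions. KLK2, an androgen-induced serine protease of the prostate, had 3. The third had 11, 11 and 57 reads in shscramble with a shMETTL1 coverage of 110, 69 and 69, a limit of 1.21% against 10.4%. The first had 7, 83 and 2 reads and the second 4, 1 and 41, each carried by 1 library. KLK2 had 16 eligible positions, and its other AlkAniline-Seq reads stood at 653, 618 and 632 CPM in shscramble and 396, 467 and 362 CPM in shMETTL1. The log2 change was -0.59 (standard error 0.30, adjusted p = 0.75 from edgeR), with shscramble replicate 1 counted as a full replicate. In the input KLK2 was at 1410, 1151 and 851 CPM in shscramble and 544, 470 and 365 in shMETTL1. The log2 change in the input was -1.68 (standard error 0.34), which did not pass adjustment over all IDs (adjusted p = 0.75 from edgeR). It passed under 2 of 12 alternatives, and the adjusted p ran from 0.00069 without the filter on low counts to 0.99999 (edgeR and DESeq2). NDRG1, a stress- and androgen-responsive gene, had 13, 1 and 67 reads at its position and a shMETTL1 coverage of 5, 3 and 0.

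Of 21 genes listed as ATF4 targets of amino acid supply, 8 could be named and 5 held a chosen position. SLC7A5, which carries large neutral amino acids, had 3, with 3, 24 and 1, then 1, 7 and 22, then 4, 1 and 41 reads in shscramble. It had 24 eligible positions, and its other reads stood between 3877 and 5973 CPM in shscramble and between 2873 and 7723 CPM in shMETTL1, so the groups overlapped. SLC1A5, a glutamine transporter, had 6, 2 and 27 reads, ASNS, asparagine synthetase, 8, 1 and 67, SESN2, another sestrin, 13, 1 and 44, and SLC3A2, the partner of SLC7A5, 8, 1 and 51. All but the second position of SLC7A5 thus had 1 or 2 reads in the weaker control. SESN2 had no coverage at its position in shMETTL1, although its other positions stood at 105, 35.5 and 103 CPM there, against 20.8, 27.1 and 36.6 CPM in shscramble (log2 change 1.53, standard error 0.89, adjusted p = 0.80 from edgeR). These values leave out its chosen position and keep 1 read only in shMETTL1.

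Among the aminoacyl-tRNA synthetases, GARS and SARS of 3 named genes (38 listed) held chosen positions. GARS, for glycine, had 4, 63 and 35 reads at the first, where shMETTL1 had a coverage of 184, 58 and 296, a limit of 0.558% against 23.8%. Its other reads stood at 585, 293 and 331 CPM in shscramble and 678, 1166 and 1010 CPM in shMETTL1. These values leave out its 2 chosen positions and keep its 10 read only in shMETTL1, so the choice itself shifts them upward after knockdown. The log2 change was 1.31 (standard error 0.33, adjusted p = 0.44 from edgeR), with shscramble replicate 1 counted as a full replicate. It passed under 2 of 12 alternatives, with an adjusted p from 0.0065 without the filter on low counts to 0.78 (edgeR and DESeq2). In the input GARS was at 488, 305 and 337 CPM in shscramble and 770, 868 and 877 in shMETTL1 (log2 change 0.84, standard error 0.32, adjusted p = 0.77 from edgeR). SARS, for serine, had 2, 35 and 1 reads at its position.

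Of 4 named genes of cholesterol and fatty acid synthesis (28 listed), HMGCS1 and NSDHL held a chosen position. HMGCS1, the cytosolic HMG-CoA synthase, had 13, 73 and 1 reads and a shMETTL1 coverage of 315, 347 and 68. Its other positions stood at 110, 66.7 and 102 CPM in shscramble and 238, 224 and 220 CPM in shMETTL1 (log2 change 1.34, standard error 0.46, adjusted p = 0.56 from edgeR). They leave out its chosen position and keep 7 read only in shMETTL1. NSDHL, a sterol dehydrogenase, had 5, 42 and 1 reads. Both positions rested on replicate 2.

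Of 3 named mitosis genes (25 listed), PRC1 and STMN1 held a chosen position. PRC1, which bundles microtubules of the central spindle, had 7, 79 and 1 reads and no shMETTL1 coverage. STMN1, which destabilises microtubules, had 8, 1 and 58 reads, with a shMETTL1 coverage of 172, 306 and 149 and a limit of 0.478% against 7.67%. Both were carried by 1 control library. STMN1 stood at -0.72 (standard error 0.40) in its other AlkAniline-Seq reads and -0.93 (standard error 0.44) in the input on the log2 scale, and neither passed adjustment (adjusted p = 0.79 and 0.77 from edgeR). In the input STMN1 was at 193, 364 and 372 CPM in shscramble and 191, 282 and 162 in shMETTL1, so the groups overlapped.

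SFPQ, the 1 named splicing factor of 24 listed, held 3 chosen positions, with 14, 77 and 1, then 7, 2 and 38, then 6, 1 and 51 reads. Of 4 named p53 targets (18 listed), GDF15, a secreted stress cytokine, had 1, 19 and 1 reads, and the other was SESN2. HERPUD1, of the 2 named genes of the ER chaperone list (17 listed), had 7, 65 and 1 reads at the first position and 6, 2 and 57 at the second. In SFPQ and HERPUD1 different positions of 1 gene were thus carried by different control libraries. No chosen position lay in the 1 named gene of DNA replication, and no gene of the 9 other lists could be named.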

How the data were processed

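Internal m7G was measured by AlkAniline-Seq in 6 libraries with 6 inputs. Per the labels and the file headers, the authors deposited for each position a count of reads, a coverage, a fraction (count over coverage), and its ratio to the input fraction, called fold. Bowtie2 2.2.4, cutadapt 1.9.1, hg19 and bedtools 2.24 are listed, without their roles, among the submitters' processing notes. Positions were matched between tables by row order, where the gene IDs are identical. The fraction equalled count over coverage at every position (0 differed by over 1e-06).

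Members and gene lists were chosen with earlier results of these data known. The counts as deposited were summed per gene ID and fitted in R 4.3.3 by edgeR 4.0.16 (TMM, quasi-likelihood, no block, minimum count 10, minimum total 15, Benjamini-Hochberg over all features tested). A test at 3 against 3 libraries has few degrees of freedom, and an exact permutation test could not go below 0.1. The standard error was the log2 change over the root of F. Alternatives were library size alone, DESeq2 1.42.0, other filters, a replicate block, the methods' t-test on log2 CPM with a pseudocount of 1, and leaving out each library. The fits were tested on simulated data with 200 changed features.

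Symbols were given where the fold recomputed from the deposited ratios (shMETTL1 mean over shscramble mean, or a mean plus 1 where the other was 0) equalled, at a relative tolerance of 2e-08, the value in the study's supplementary gene list at exactly 1 position. This held for 115 of 238 genes. None of the 18569 IDs matched the reference table. The planned rule took the 10 highest positions by smaller count, summed reads and shMETTL1 coverage, the 10 genes with most positions, and up to 4 genes per list. Beyond it, the ATF4 list was given with all 5 of its genes that held a chosen position. Positions in named genes with at least 10 reads in both controls were added after their values were seen. Positions of unnamed genes are mostly given without ID.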

Additional observations from a re-analysis of the deposited data

How the results depend on the processing

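The number of chosen positions depended most on the libraries and thresholds that define them. It was 15290 with shscramble replicates 1 and 2 as selecting libraries and 9422 with replicates 1 and 3, 1544 with a sum of 50 or more reads, 577 with 5 or more reads in each, and 1072 with coverage asked of all 3 shMETTL1 libraries. With 10 or more reads in each, a setting chosen after seeing the data, it was 340. A sum of 10 or more gave 3521, at most 1 shMETTL1 read gave 4136, and rows with the same values counted once, also chosen after seeing the data, gave 2680. Leaving out 1 shMETTL1 library gave 3666 to 4069.

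None of the input genes of the chosen positions passed in edgeR with TMM, with library size alone, with a minimum count of 20, with the methods' t-test or without any 1 library (0 to 0). All calls elsewhere were lower in shMETTL1: 5 with DESeq2 (0.231% of those tested, against 0.169% of all IDs), 22 without a filter (0.976% against 0.524%, where 94 of all IDs were lower and 1 higher) and 2 with a replicate block (0.0908% against 0.017%, as both calls over all IDs were among them). For the other AlkAniline-Seq reads of the genes DESeq2 called 27, and edgeR without a filter called 7, of which 1 was lower (0.0444% against 0.0399% of all IDs) and 6 higher (0.266% against 0.0683%). The remaining settings called 0. Of the chosen positions tested in the input, 0 passed under any setting, with a replicate block or without. The replicate numbers did not pair the libraries: deviations of same-numbered input libraries from their group means correlated at 0.05, 0.01 and -0.03 over genes. The 642 chosen positions with no input read limit these tests. In simulated counts set to a low spread at the same number of libraries most changed features were recovered. With the spread of the data, 0% of input positions and 33% of input genes changed 8-fold were recovered. Of the chosen positions, 38.0% alone had coverage in every shMETTL1 library.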
